A study of Mus musculus with 20 samples.

Results

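The Takusan-like genes of mouse chromosome 14 were followed through 4 annotated members, Gm10413, 2610042L04Rik, Gm3696 and 4930555G01Rik. Their 14 array probes come from 41174 gene probes on the array, which carry 27655 gene or file names. The probes were those whose file name, synonym, gene number or accession leads to 1 of these symbols in the RefSeq gene table: 5 for Gm10413, 4 for 2610042L04Rik, 1 for Gm3696 and 4 for 4930555G01Rik. The genes were chosen by measured values, namely their lower signal in C57BL/6J than in 129S1/SvImJ, so that difference is described below without a test.

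RNA of single pairs of XY gonads at embryonic day 11.5 (17 to 21 tail somites), dissected free of the mesonephros, was labelled with Cy5 on 20 two-colour Agilent arrays. There were 4 groups of 5 pairs: (B6x129S1)F1 and (129S1xB6)F1, hybrids from reciprocal crosses, and the inbred strains C57BL/6J and 129S1/SvImJ. The labels give no treatment. The Cy3 channel of every array held one reference pool of Sox9-ECFP(C57BL/6J) x CD-1 material. It mixed whole embryos (4 XY, 2 XX) with gonads, 4 pairs being XY and 3 pairs XX. Dyes were not swapped. A level below is the log2 ratio of gonad over pool for 1 probe on 1 array, so it ranks arrays and not genes. Each sample name starts with a letter that may mark a litter. C57BL/6J arrays H1 to H4 share one letter and K2 carries another. K2 held the highest C57BL/6J value for 8 of the 14 probes, and H1 the lowest for 9.

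Takusan, named after the Japanese word for many, is a rodent gene family that grew by repeated duplication near the centromeric end of mouse chromosome 14. Its founding sequence is related to a part of Dlg5, a scaffold protein of the MAGUK family. In mouse neurons, some takusan proteins bind the postsynaptic scaffold PSD-95 (Dlg4) and increase synaptic activity. Of the 4 members, 2610042L04Rik carries takusan as a synonym in RefSeq, and the roles of the other genes are known only through this family likeness. A role in the embryonic gonad is not part of that background. The RefSeq order of genes places 2610042L04Rik 33 genes, 4930555G01Rik 54 genes and Gm3696 125 genes after Gm10413. Of the 122 other genes between the outermost members, only Gm9602 and Gm8340 have a probe on the array.

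Because copies of such a family are close to identical, 1 probe can bind the transcripts of several copies (cross-hybridisation), and the array cannot separate them. Among the 41174 probes, 7 of the 14 member probes share an unbroken run of at least 20 bases with another probe. Of these, A_51_P107039 and A_52_P195235 do so only with each other. The probes with the longest runs are printed here as 60-base oligos, 5′ to 3′, with the longest run shared with the probe printed beside it in capitals. The first pair belongs to Gm10413, and both probes were read as the same gene:
A_52_P181533: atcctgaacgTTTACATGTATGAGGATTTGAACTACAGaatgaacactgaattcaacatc
A_52_P291428: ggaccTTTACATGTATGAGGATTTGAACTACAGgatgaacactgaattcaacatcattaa
These share 28 bases in a row and 52 of 55 aligned bases. The second pair belongs to 4930555G01Rik and overlaps by 40 bases without a mismatch. Both probes carry the same transcript record, so their overlap does not show likeness between copies:
A_52_P195235: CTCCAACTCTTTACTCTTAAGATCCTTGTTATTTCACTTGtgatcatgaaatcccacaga
A_51_P107039: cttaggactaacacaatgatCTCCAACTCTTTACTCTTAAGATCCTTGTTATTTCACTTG
The third set crosses gene names. The 4930555G01Rik probe shares 34 bases in a row with the probe of Gm9602, an unlisted gene between the members, and the Gm3696 probe shares 27 bases in a row with the 4930555G01Rik probe:
A_52_P603540: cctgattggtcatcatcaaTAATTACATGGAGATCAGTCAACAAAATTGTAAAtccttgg
A_52_P173453: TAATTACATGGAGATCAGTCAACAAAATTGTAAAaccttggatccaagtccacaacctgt
A_52_P355751: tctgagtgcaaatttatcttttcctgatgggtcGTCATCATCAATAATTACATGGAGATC
A level read from any of these 3 probes therefore cannot be credited to 1 gene. The other member probes are not thereby specific to 1 gene. A_52_P522048 of 4930555G01Rik and A_52_P181533 of Gm10413 share 22 and 24 bases in a row with the same further probe. Likeness broken by mismatches into runs under 20 bases was not searched for. Of the 7 member probes with no such run, the 2 below carry the result in the hybrids, and both belong to 2610042L04Rik:
A_52_P342836: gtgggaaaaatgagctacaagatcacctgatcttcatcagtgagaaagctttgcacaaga
A_52_P386075: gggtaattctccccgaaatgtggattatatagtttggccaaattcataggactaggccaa
These 14 oligos were not matched to transcripts or to the genome of either strain here, so copies that are not on the array, and base differences between the strains under a probe, were not tested.

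The 250 bases upstream of an annotated RefSeq start (GRCm38.p6) are printed because the members differed together between the strains. They fall into pairs that do not follow the gene order. Capitals mark the longest run shared within a pair.
Gm10413 (chr14:3394843-3395092, plus strand): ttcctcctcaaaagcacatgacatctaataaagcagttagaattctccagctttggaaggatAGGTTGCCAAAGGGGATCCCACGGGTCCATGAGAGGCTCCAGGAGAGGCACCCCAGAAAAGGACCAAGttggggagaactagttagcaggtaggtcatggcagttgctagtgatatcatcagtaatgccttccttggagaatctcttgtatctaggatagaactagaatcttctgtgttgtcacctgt
4930555G01Rik (chr14:5050379-5050628, plus strand): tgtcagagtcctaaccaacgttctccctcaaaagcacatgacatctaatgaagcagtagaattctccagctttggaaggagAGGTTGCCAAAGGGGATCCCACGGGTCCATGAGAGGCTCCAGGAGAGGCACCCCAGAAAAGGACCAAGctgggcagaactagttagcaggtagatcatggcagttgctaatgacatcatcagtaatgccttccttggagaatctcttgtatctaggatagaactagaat
2610042L04Rik (chr14:4334513-4334762, plus strand): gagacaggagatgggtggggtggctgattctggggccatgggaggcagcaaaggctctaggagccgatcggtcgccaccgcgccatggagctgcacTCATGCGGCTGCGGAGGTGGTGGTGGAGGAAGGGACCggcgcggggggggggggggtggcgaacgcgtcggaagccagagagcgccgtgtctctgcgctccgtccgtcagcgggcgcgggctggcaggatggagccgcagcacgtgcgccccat
Gm3696 (chr14:7105504-7105753, minus strand): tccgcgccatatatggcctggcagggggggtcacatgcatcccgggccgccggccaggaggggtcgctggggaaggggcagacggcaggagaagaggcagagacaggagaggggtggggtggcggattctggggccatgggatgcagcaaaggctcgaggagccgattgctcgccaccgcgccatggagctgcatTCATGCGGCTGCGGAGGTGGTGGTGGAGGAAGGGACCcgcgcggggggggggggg
The windows of Gm10413 and 4930555G01Rik were 95.7% identical over 231 aligned columns, with a run of 68 bases. Those of 2610042L04Rik and Gm3696 were 94.7% identical over 151 columns, with a run of 37 bases. Between the pairs no run was longer than 9 bases. The first pair had a GC content of 46.4% and 47.6% with 1 and 2 CpG, against 71.2% and 70.4% with 25 and 18 CpG in the second. The window of 2610042L04Rik lies inside the annotated span of that gene, which has several starts. Of 4 motifs searched on both strands, the E-box CACGTG occurred only in 2610042L04Rik, and 6.02% of 32851 RefSeq windows of this length hold it. The TATA motif TATAAA was in none of the 4 windows, and 12.4% of all windows hold it. The same holds for the motif CCAAT, found in 33.8% of all windows, and for the GC box GGGCGG, found in 32.7%. The letters are those of the C57BL/6J reference, and the data hold no binding or methylation in these windows.

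All 14 probes were well above background in Cy5 on all 20 arrays, but several were dim in C57BL/6J. The median C57BL/6J Cy5 signal ran from 66 for A_52_P280668 to 2486 for A_52_P386075. In Cy3, 13 of the 14 were well above background on all arrays. Every member probe had a lower mean in C57BL/6J than in 129S1/SvImJ. The log2 difference, C57BL/6J minus 129S1/SvImJ, ranged from -3.31 to -0.20 with a median of -2.67, while the median of all 35038 probes tested was 0.0024. For 13 of the 14 probes every C57BL/6J array lay below every 129S1/SvImJ array, a pattern found in 2.25% of all probes tested. The genes were selected on this contrast, so the count supports nothing further. In size, 10 of the probes stood among the 50 largest deficits of C57BL/6J on the array. In whole gonads, fewer cells with the transcript and less transcript per cell cannot be told apart. The pool in Cy3 did not carry the difference: after scaling each array by its 75th percentile, the Cy5 difference had a median of -2.75, against -0.06 in Cy3 (range -0.20 to 0.04). The plot of member values by array shows every value.

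**Figure D1:**
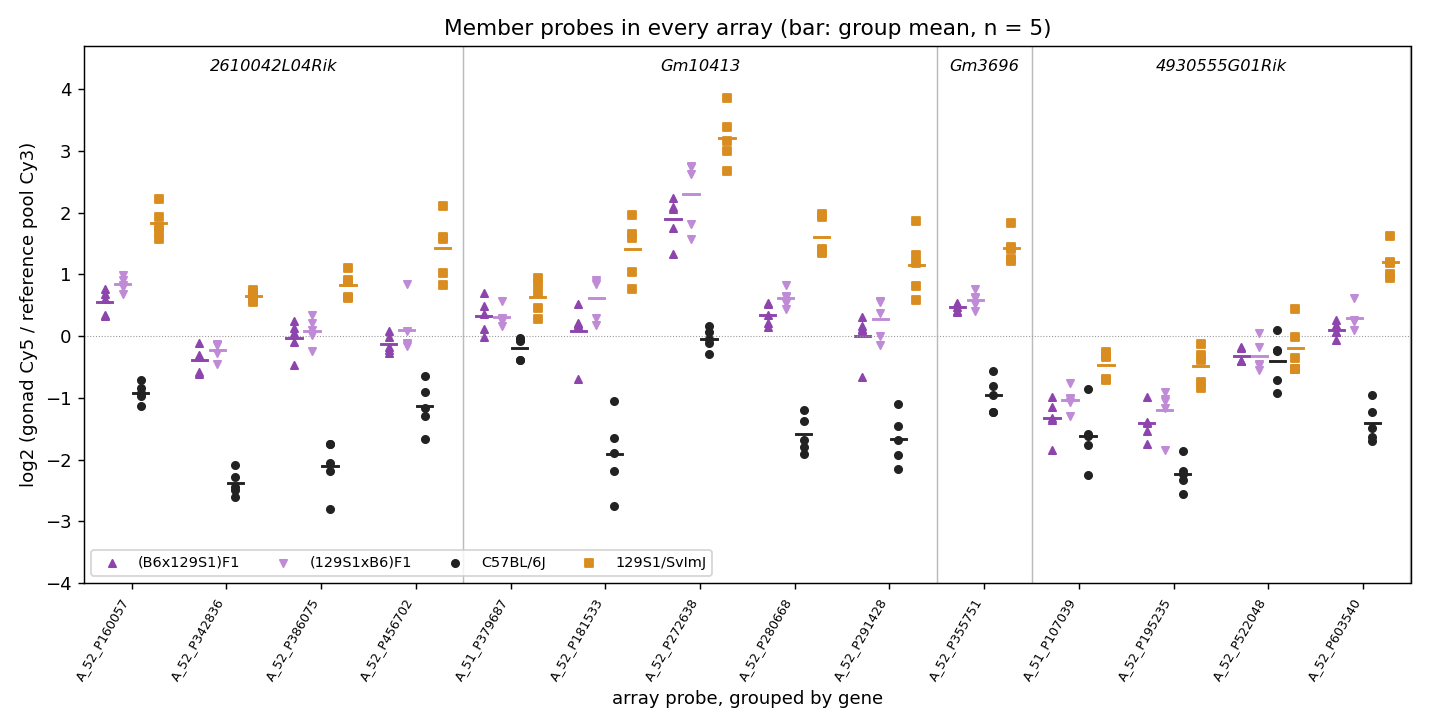
Log2 ratio of gonad (Cy5) over reference pool (Cy3) for the 14 member probes, grouped by gene; each point is 1 array and each bar the mean of 5 arrays. For 13 probes the C57BL/6J points lie wholly below those of 129S1/SvImJ, with the F1 means between, and for A_52_P522048 the groups overlap.

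2610042L04Rik, the gene listed as takusan, was lower in C57BL/6J with each of its 4 probes. In C57BL/6J, A_52_P342836 gave log2 ratios of -2.45, -2.28, -2.49, -2.09 and -2.60, against 0.66, 0.74, 0.58, 0.55 and 0.70 in 129S1/SvImJ. The strain values lay far apart for this probe, with a difference of -3.03 ± 0.11 (SE, n = 5 each), or 8.17-fold lower in C57BL/6J. In C57BL/6J, A_52_P386075 gave log2 ratios of -2.05, -1.75, -2.19, -1.74 and -2.81, against 1.11, 0.87, 0.91, 0.64 and 0.62 in 129S1/SvImJ. K2 gave the lowest C57BL/6J value here, unlike in most probes, and the difference was -2.94 ± 0.18. In C57BL/6J, A_52_P160057 gave log2 ratios of -1.13, -0.84, -0.92, -0.97 and -0.71, against 2.22, 1.57, 1.68, 1.77 and 1.93 in 129S1/SvImJ. All C57BL/6J arrays were again below the pool and all 129S1/SvImJ arrays above it, 6.73-fold apart. The remaining probe, A_52_P456702, ran from -1.67 to -0.65 in C57BL/6J and from 0.83 to 2.11 in 129S1/SvImJ, with a difference of -2.57 ± 0.23.

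Gm10413, a predicted gene with the older name 1700001E04Rik, held the largest differences of the cluster in the main fit and also one of the small ones. In C57BL/6J, A_52_P181533 gave log2 ratios of -2.76, -1.89, -2.18, -1.65 and -1.05, against 0.77, 1.66, 1.03, 1.59 and 1.97 in 129S1/SvImJ. The difference of -3.31 ± 0.29 was the largest among the members in that fit, 9.92-fold. The C57BL/6J arrays spread widely, from H1 at -2.76 to K2 at -1.05. A_52_P291428, which shares 28 bases with it, gave -2.82 ± 0.24, again with K2 as the highest C57BL/6J array, at -1.10. In C57BL/6J, A_52_P272638 gave log2 ratios of -0.29, 0.06, 0.16, -0.06 and -0.11, against 3.39, 3.17, 2.67, 3.86 and 3.00 in 129S1/SvImJ. For this probe the C57BL/6J arrays lay near the level of the pool and those of 129S1/SvImJ were 9.6-fold above them. Its Cy3 spot was dim, with group medians of 77 to 116, and was well above background on 19 of 20 arrays. A_52_P280668 differed by -3.20 ± 0.15, with C57BL/6J at -1.59 ± 0.29 and 129S1/SvImJ at 1.61 ± 0.32 (SD, n = 5 each). The remaining probe, A_51_P379687, differed less: -0.39 to -0.04 in C57BL/6J and 0.28 to 0.93 in 129S1/SvImJ, a difference of -0.83 ± 0.14. The 5 probes of Gm10413 therefore disagree in size, from 1.78-fold to 9.92-fold, and agree in direction.

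Gm3696, the last member in the gene order, had a single probe. In C57BL/6J, A_52_P355751 gave log2 ratios of -1.24, -0.81, -0.95, -1.23 and -0.56, against 1.25, 1.45, 1.22, 1.41 and 1.83 in 129S1/SvImJ. The groups did not overlap, and C57BL/6J was 5.24-fold lower, at -2.39 ± 0.13. The 4 probes of 4930555G01Rik gave 4 different sizes. In C57BL/6J, A_52_P603540 gave log2 ratios of -1.70, -1.23, -1.49, -1.64 and -0.96, against 0.95, 1.19, 1.01, 1.20 and 1.62 in 129S1/SvImJ. This probe, which shares bases with Gm3696 and Gm9602 probes, differed by -2.60 ± 0.15. A_52_P195235 differed by -1.75 ± 0.18, and A_51_P107039, which covers 40 of the same bases, by -1.15 ± 0.20. In the second of these, K2 read -0.85 while the arrays of the other C57BL/6J letter read -2.26 to -1.58, so that K2 lay close to the lowest 129S1/SvImJ array at -0.71. In C57BL/6J, A_52_P522048 gave log2 ratios of -0.92, -0.71, -0.25, 0.10 and -0.23, against -0.53, -0.01, 0.45, -0.35 and -0.54 in 129S1/SvImJ. These groups overlapped, and the difference was -0.20 ± 0.19, within the spread of the arrays (the 5 C57BL/6J arrays had an SD of 0.41 and the 129S1/SvImJ arrays one of 0.42). Thus 1 of the 14 probes that were grouped by a lower C57BL/6J level showed no separation of the strains. Its spots were dim, with group medians of 93 to 106 in Cy5 and 127 to 146 in Cy3. Whether a strain difference is hidden by this low signal was not tested.

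The median strain difference over the member probes stayed within -2.74 to -2.64 when each of the 20 arrays was left out in turn. With normexp background correction and loess normalisation, that median was -1.87 in place of -2.67, and 12 of 14 probes separated the strains in place of 13. With the Cy5 signal alone, 11 did. With scale normalisation between arrays the median was -3.09. With C57BL/6J represented by K2 only, the median was -2.30. Within the slides that held both strains, the median was -2.85, -2.46, -2.03 and -2.85 for slides 1 to 4, and slide 3 is the one whose C57BL/6J array is K2.

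The hybrids carry 1 genome of each strain, and their place between the strains asks whether their level is that of the average parent. Every member probe had an F1 mean, over the 10 hybrid arrays, between the strain means. For 8 of the 13 probes that separated the strains, each of the 10 F1 arrays lay between all C57BL/6J and all 129S1/SvImJ arrays, while 5.57% of all probes with every C57BL/6J array below every 129S1/SvImJ array showed this. A wide strain gap leaves more room for F1 arrays, and the members were chosen on that gap. The higher share among them therefore supports nothing further. The count of 8 was 5 with normexp and loess, 6 with the deposited table and 7 with the Cy5 signal alone. Of the other 5 probes, 4 had F1 arrays within the 129S1/SvImJ range: A_51_P379687, A_52_P181533 and A_52_P272638 of Gm10413, and A_52_P456702 of 2610042L04Rik through array L1 alone. In the case of A_51_P107039 of 4930555G01Rik, F1 arrays (-1.84 to -0.77) overlapped those of C57BL/6J (-2.26 to -0.85), whose highest array was K2. The median F1 difference was 1.61 from C57BL/6J and -0.98 from 129S1/SvImJ, and both values share strain arrays with the contrast that chose the genes. On the log2 scale the F1 mean stood at a median of 61.9% of the way from C57BL/6J to 129S1/SvImJ (37.5% to 72.7%). On the linear ratio scale it stood at 40.0% (21.1% to 54.2%).

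The contrast of F1 minus mid-parent is the mean of both F1 groups minus the mean of both strains. It is orthogonal to the strain difference and was tested by limma with Benjamini-Hochberg adjustment over all 35038 probes. It is partly mixed with slide and scan day. Slide 5 held only F1 arrays (C4, E1, M3 and M6), and slide 1 only strain arrays (A3, D4, H1 and H3). Of the 14 member probes, 2 passed at an adjusted p under 0.05, both of 2610042L04Rik and both higher in the F1, where 0.24% of all probes passed. With A_52_P342836, the F1 values were -0.61, -0.30, -0.12, -0.58 and -0.34 in (B6x129S1)F1 and -0.45, -0.14, -0.14, -0.13 and -0.28 in (129S1xB6)F1. All 10 hybrid values lay in the gap between the strains, above the middle of it on the log2 scale. The difference from mid-parent was 0.56 ± 0.08 (adjusted p = 0.0013). With A_52_P386075, the F1 values were -0.47, 0.04, 0.14, -0.10 and 0.25 in (B6x129S1)F1 and -0.24, 0.20, 0.02, 0.35 and 0.09 in (129S1xB6)F1. The hybrids again filled the gap without touching either strain, at 0.67 ± 0.13 from mid-parent (adjusted p = 0.027). This second call was weak: it was lost in 14 of 29 alternative fits, among them the fits without L4, M3, M6, C3, C4, F2, D4, G3 or H3, each left out alone. The call for A_52_P342836 was lost in 2 of 29, with slide as a block (0.49 ± 0.11, adjusted p = 0.15) and with scale normalisation between arrays (0.56 ± 0.19, adjusted p = 1.00). With slide as a block, the median of the member probes was 0.16 in place of 0.30, and 0 members were called.

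The remaining 12 probes did not pass, with differences from -0.15 to 0.60. Before adjustment, 9 of the 14 member probes had a limma p under 0.05, as did 8.72% of all probes. Member probes share targets and arrays and are not independent. The other probes of 2610042L04Rik gave 0.23 ± 0.09 for A_52_P160057 and -0.15 ± 0.16 for A_52_P456702. In Gm10413, A_52_P280668 stood at 0.48 ± 0.11 (adjusted p = 0.080) and A_52_P181533 at 0.60 ± 0.20 (adjusted p = 0.39). With A_52_P355751, the F1 values were 0.54, 0.47, 0.53, 0.39 and 0.41 in (B6x129S1)F1 and 0.41, 0.64, 0.52, 0.62 and 0.76 in (129S1xB6)F1. These 10 values of Gm3696 spanned less than those of any other member probe, at 0.29 ± 0.09 from mid-parent (adjusted p = 0.33). With A_52_P603540, the F1 values were 0.26, 0.07, 0.18, 0.06 and -0.07 in (B6x129S1)F1 and 0.10, 0.27, 0.24, 0.25 and 0.61 in (129S1xB6)F1. This probe of 4930555G01Rik stood at 0.30 ± 0.10 (adjusted p = 0.39), with both crosses between the strains. A_52_P522048 of the same gene, which did not separate the strains, had F1 values of -0.55 to 0.05 and -0.02 ± 0.14 from mid-parent. In all, 11 of the 14 members had a value above 0 and 3 below, with a median of 0.30, and the median of all probes tested was 0.0042. Within slides 2 to 4, which held all 4 groups, the median of the members was 0.20, 0.17 and 0.20. With normexp and loess it was 0.093.

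The direction of this contrast depends on the scale on which the parents are averaged. The mean of 2 log2 values lies below the log2 of the mean of 2 linear ratios, and the gap grows with the strain difference. Against the mean of the linear ratios, a comparison added after the values were seen, 12 of the 14 probes lay below the mid-parent and 2 above, with a median of -0.21 on the log2 scale (-0.69 to 0.03). The called probes of 2610042L04Rik stood at -0.12 ± 0.06 for A_52_P342836 and 0.02 ± 0.11 for A_52_P386075, both within 2 SE of 0. By this measure 4 probes were below the linear mid-parent by over 2 SE, and none above it. The lowest was A_52_P456702 at -0.69 ± 0.23, and A_52_P160057 gave -0.34 ± 0.11. The plot of F1 against both kinds of mid-parent sets the values side by side.

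**Figure D2:**
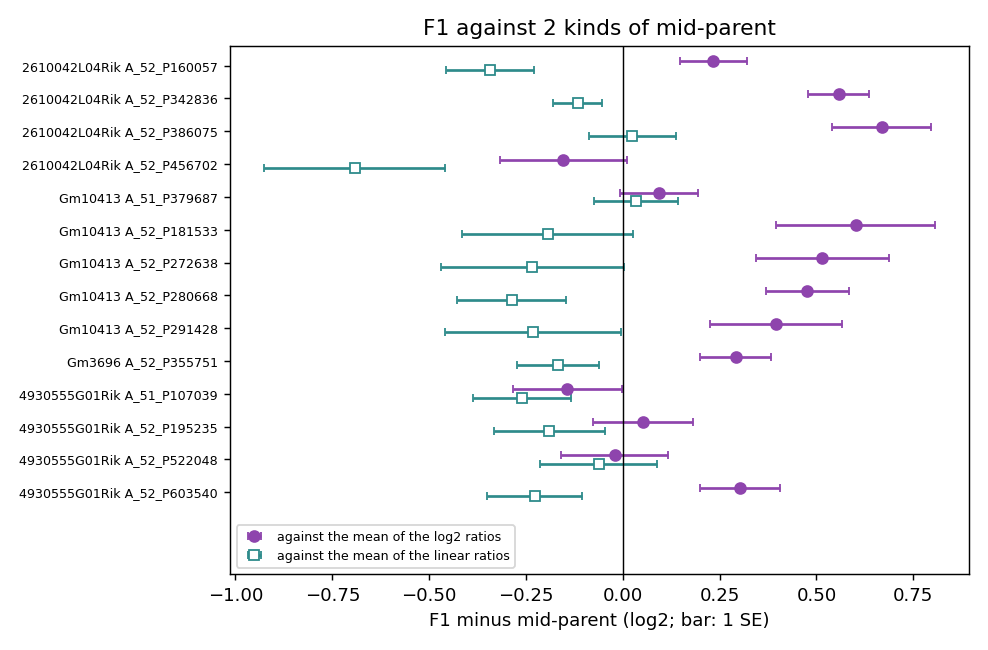
Difference of the F1 mean (10 arrays) from the mid-parent in log2 units for each member probe, with 1 SE; filled circles use the mean of the log2 ratios of the strains and open squares the mean of their linear ratios. Circles lie above 0 for 11 of 14 probes and squares below 0 for 12 of 14.

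By the usual notation the first-named strain of a cross is the mother, and none of the 14 member probes passed between the crosses by limma after adjustment, where 0.00571% of all probes tested did. A single member probe, A_52_P160057 of 2610042L04Rik, had an unadjusted limma p under 0.05 (adjusted p = 1.00), as did 3.34% of all probes. With A_52_P160057, the F1 values were 0.76, 0.61, 0.68, 0.33 and 0.34 in (B6x129S1)F1 and 0.98, 0.69, 0.91, 0.83 and 0.80 in (129S1xB6)F1. The values overlapped, with a difference of -0.30 ± 0.12. Differences, (B6x129S1)F1 minus (129S1xB6)F1, ran from -0.55 to 0.02 with a median of -0.22, and the median of all probes was 0.01. Of the 14, 12 were below 0, yet probes share targets and arrays and are not independent. The widest difference was that of A_52_P181533 of Gm10413. With A_52_P181533, the F1 values were 0.51, 0.21, 0.16, 0.19 and -0.69 in (B6x129S1)F1 and 0.30, 0.18, 0.91, 0.85 and 0.88 in (129S1xB6)F1. The (B6x129S1)F1 array F2, at -0.69, lay below the other hybrid arrays and widened the spread. Within slides the median was -0.16, -0.16, 0.10 and -0.28 for slides 2 to 5, so its sign turned on slide 4. The SE of this contrast for a member was 0.11 to 0.29, which sets the size of a parental difference that could be seen here.

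Other probes that share a run with a member probe were read next. The probe of Gm9602 (A_52_P173453) was lower in C57BL/6J, with a difference of -2.88 ± 0.16 (limma adjusted p = 3.0e-10), at -2.20 ± 0.40 in C57BL/6J and 0.69 ± 0.29 in 129S1/SvImJ. The 4930555G01Rik probe with which it shares 34 bases, A_52_P603540, differed by -2.60. The other probes carry file names without a RefSeq symbol. One of them, which shares 22 bases with A_52_P522048 and 24 with A_52_P181533, was lower in C57BL/6J (-3.08 ± 0.27, adjusted p = 2.0e-07). Another, which shares 21 bases with A_52_P181533 and 20 with A_52_P291428, did not pass (0.09 ± 0.21, adjusted p = 0.93). The last shares 26 bases with both A_52_P181533 and A_52_P291428 and was higher in C57BL/6J (1.53 ± 0.44, adjusted p = 0.046), but its Cy3 channel was well above background on only 3 of 20 arrays, so that its ratio rests on a denominator near background. All 4 probes share bases with probes whose genes were chosen for this contrast, so they are no independent test of it.

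Neighbouring genes were read on the same contrast to see how far the lower signal extends along the chromosome. The genes read were those between the members, 15 on either side in the gene order, and a list of chromosome 14 genes that reaches further. Of their 34 probes for 24 genes, 31 were tested and 6 passed between the strains by limma over all probes (19.4%, where 5.47% of all probes tested passed). Of these, 5 were higher and 1, Gm9602, was lower in C57BL/6J, and the median of the 31 was 0.0010. The higher ones lie beyond Gm3696, at places 185 to 195 in the gene order, where Gm3696 holds place 157. They entered through the list and are not among the 15 genes on either side. Rpp14, a subunit of ribonuclease P, was higher by 1.72 ± 0.14 (adjusted p = 6.5e-08). Pdhb, a subunit of pyruvate dehydrogenase, was higher with 1 of 2 probes (1.04 ± 0.11, adjusted p = 2.3e-06), while the other read 0.14 ± 0.12. Pxk, a PX domain kinase-like protein, was higher by 0.88 ± 0.14 (adjusted p = 0.00044), Kctd6 by 0.62 ± 0.15 (adjusted p = 0.012) and Dnase1l3, a secreted DNase, by 0.38 ± 0.11 (adjusted p = 0.046). The call for Dnase1l3 was lost in 22 of 30 alternative fits and that for Kctd6 in 4. Among the 15 genes on the side of Gm10413, D830030K20Rik differed by -0.998 ± 0.300 and did not pass (adjusted p = 0.059). Nor did 1700110I01Rik (-0.11 ± 0.21, adjusted p = 0.90). The 15 genes next after Gm3696 held no tested probe. The neighbours were also listed with earlier results of these data known.

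**Figure D3:**
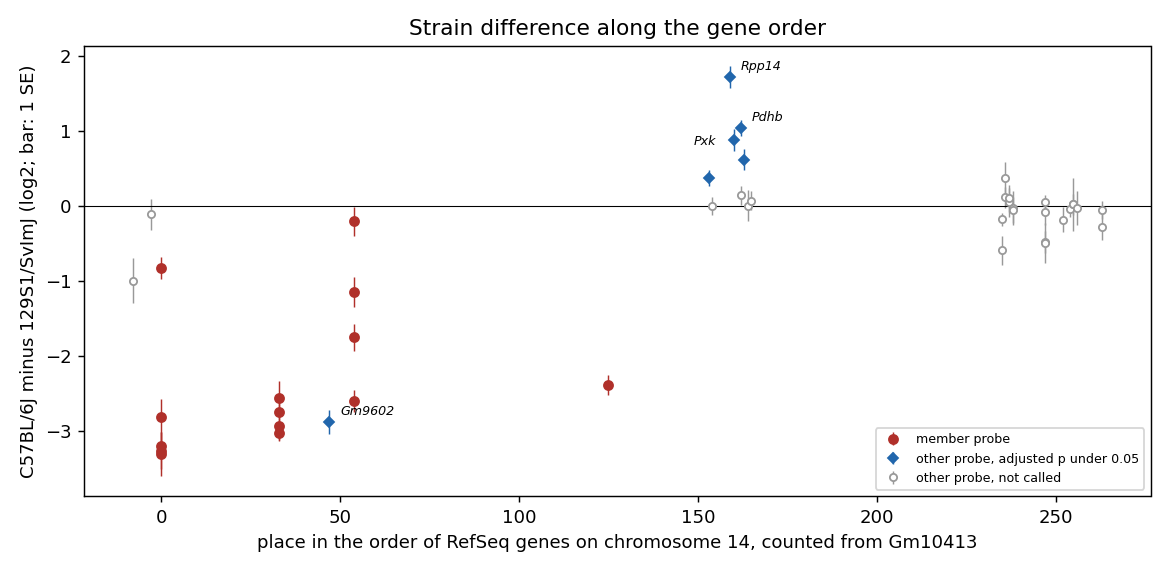
Log2 difference, C57BL/6J minus 129S1/SvImJ, with 1 SE for member probes and tested neighbours, against the place of the gene in the RefSeq order on chromosome 14 counted from Gm10413. Member probes and Gm9602 lie below 0, and the 5 called genes beyond Gm3696 lie above 0. None of the more distant genes passed.

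The scaffold to which takusan proteins bind in neurons, PSD-95, and its partners were read with 41 probes for 19 genes. Of 32 probes tested, 3 passed between the strains (9.38%, against 5.47% of all probes), 1 higher and 2 lower in C57BL/6J, with a median of -0.0090. The AMPA receptor subunits Gria2 (A_52_P575176, -1.12 ± 0.22, adjusted p = 0.0032) and Gria1 (A_51_P498031, -0.80 ± 0.22, adjusted p = 0.042) were lower. The Cy5 spot of this Gria1 probe passed the background flag on 13 of 20 arrays. The other Gria1 probe tested, A_52_P39575, passed it on all 20 and read -0.09 ± 0.27 (adjusted p = 0.95). Dlgap3, which links PSD-95 to Shank proteins, was higher (0.70 ± 0.16, adjusted p = 0.0088). Shank3, a scaffold, gave -0.33 ± 0.14 (adjusted p = 0.26). The Gria1 call was lost in 19 of 29 alternative fits, and none of the 3 was called with C57BL/6J represented by K2 only. None of the 32 probes was called for F1 minus mid-parent or between the crosses.

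Across the 20 arrays, the genes outside the family with the profile nearest to the mean of the member probes were Cbr1, Dera, Hddc3, Tescl and Fbxw27. Each profile was centred on its own mean, and likeness was the root mean square log2 difference over the 20 arrays, among 17411 genes with 1 probe each. Cbr1, a carbonyl reductase on chromosome 16, lay at 0.24, Dera, an aldolase of deoxyribose phosphate on chromosome 6, at 0.24 and Hddc3, an HD domain phosphohydrolase on chromosome 7, at 0.27. Tescl, a tescalcin-like gene on chromosome 7, lay at 0.30, and Fbxw27, an F-box gene on chromosome 9, at 0.32. The median of all these genes was 0.89. The member probes themselves lay at 0.13 to 0.84 from their own mean profile, with A_52_P355751 of Gm3696 nearest and A_52_P522048 of 4930555G01Rik farthest. Cbr1 had 0.41 ± 0.11 in the F1 (SD, n = 10), -0.99 ± 0.07 in C57BL/6J and 1.02 ± 0.24 in 129S1/SvImJ (SD, n = 5 each). All 5 genes were found by their likeness to a strain difference, which is a description and not a test. None of them lies on chromosome 14, but this was partly set in advance. The neighbouring genes read above, and probes that share a run with a member probe, were not candidates.

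The tissue label was checked on marker lists against the pool. Of 6 markers of the early gonad (Nr5a1, Gata4, Wt1, Lhx9, Emx2 and Cbx2), 5 were above the pool on average, as were all 5 germ cell markers, while none of 5 neuronal markers was. Mesonephric, endothelial, erythroid and macrophage markers were above it for 1, 3, 2 and 2 of 4 genes. The mean of the gonad list per array was 2.19 to 2.75 in C57BL/6J and 1.75 to 2.33 in 129S1/SvImJ. That of the germ cell list was 1.41 to 2.16 in C57BL/6J and 2.08 to 2.44 in 129S1/SvImJ. Only 1 gonad and 1 mesonephric gene of the 7 lists differed between the strains by limma. Their part in the results on the members was not tested. Nnt, which is known to be mutated in C57BL/6J, was lower there with 1 of 4 probes (A_52_P395228, -0.72 ± 0.13, adjusted p = 0.0011). Between 78.4% and 88.3% of gene spots were well above background in Cy5 per array.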

How the data were processed

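Per the file headers, the authors' scanner files hold spot intensity from Agilent Feature Extraction 9.1.3.1; the processed columns used here were background-subtracted, spatially detrended and dye-normalised by LOWESS. A deposited table of log2 ratios, whose method and centring are not given in the sources used here, served as an alternative (r = 0.935 to 0.960 with the processed ratios per array, across spots).

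The value analysed was log2 of processed Cy5 over Cy3, averaged over spots of one probe, without control spots and outlier flags. Probes entered the test where the Cy5 spot passed the scanner's background flag in 4 or more of the 5 arrays in any group, leaving 35038 of 41174. One model with 4 groups was fitted to all 20 arrays with limma 3.58.1 in R 4.3.3 (16 residual and 3.30 prior degrees of freedom), with Benjamini-Hochberg adjustment over all probes and calls at an adjusted p under 0.05. The fit was tested on simulated data. Member values were complete. Probe sequences are the array's, upstream sequences RefSeq's (GRCm38.p6, 4 of 4 genes).

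The members, lists and alternatives were chosen with earlier results of these data known. Named were all member probes, called neighbours (at most 10), the 4 PSD-95 partners with the smallest p, the 5 nearest profiles (7 nearer clone or accession names passed over) and Nnt. A neighbouring gene is not reported here and was left out of the neighbour counts. Slides, letters, filters and normalisations were varied. The labels do not tie arrays to litters, so p-values measure the spread between these arrays, and their number limits the precision.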

Additional observations from a re-analysis of the deposited data

Results flagged for a closer look

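For 14 member probes in 4 groups of 5 arrays, 56 sets of values were examined for an array that lies far from the other 4 (a gap over the range above 0.71), and 4 were found. Chance gives about 1 in 20 such sets. In (B6x129S1)F1, array F2 read -0.69 with A_52_P181533 of Gm10413, below the other arrays at 0.16 to 0.51, and -0.66 with A_52_P291428, below 0.10 to 0.31. These probes share 28 bases. In (129S1xB6)F1, array L1 read 0.84 with A_52_P456702 of 2610042L04Rik, above the other arrays at -0.16 to 0.08, and array L2 read -1.84 with A_52_P195235 of 4930555G01Rik, below -1.16 to -0.91. No set of C57BL/6J or 129S1/SvImJ arrays met this limit. The cause was not tested.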

How the results depend on the processing

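Over the alternatives tried, every member probe kept a lower mean in C57BL/6J except A_52_P522048 of 4930555G01Rik, which read 0.64 within slide 4. The median strain difference was -1.87 with normexp and loess, -3.09 with scale normalisation between arrays, -2.46 within slide 2, -2.03 within slide 3 and -2.30 with K2 alone for C57BL/6J, and -2.74 to -2.64 leaving out each array. F1 minus C57BL/6J had a median of 1.02 with normexp and loess, 1.14 within slide 3, 1.20 with K2 alone and 1.84 over the member probes that share no run, a choice made after seeing the data (1.54 to 1.69 leaving out each array). F1 minus 129S1/SvImJ was -1.26 with scale normalisation (-1.01 to -0.87 leaving out each array). F1 minus mid-parent had a median of 0.093 with normexp and loess and 0.084 with Cy5 only, where the median of all probes was -0.053. Against the linear mid-parent the member median was -0.21. There 12 of the 14 probes lay below 0 in place of 3, among them A_52_P342836 (-0.12). Leaving out each array, the member median was 0.26 to 0.35. The count of members called for F1 minus mid-parent was 1 with normexp and loess, the deposited table or the letter as a random block. It was also 1 with the brightest probe per gene, 0 with scale normalisation or slide as a block, and 3 with Cy5 only. Leaving out each array, that count was 1 to 3. Between the crosses the median was 0.10 within slide 4 (-0.28 to -0.17 leaving out each array), and the count stayed at 0 throughout. Called neighbours numbered 5 to 8 and PSD-95 partners 2 to 3 leaving out each array, and the partners 1 with scale normalisation and 0 with K2 alone. The causes were not tested. Within-slide settings give values only, and fits with 1 array for C57BL/6J assume that it varies like the other groups. Arrays could be matched by slide, as in the slide block and the within-slide values. The groups share no replicate names, so arrays were not paired by replicate. Member probes were well above background in Cy5 on all arrays, and the number of arrays limits the crosses.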
